A study of Mus musculus with 62 samples.

Results

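The genes described here are 10 genes of neutrophils and of the vessel wall that neutrophils cross: S100a8, S100a9, Ngp and Ltf, which encode granule and cytosolic products, Csf3r and Cxcr2, which encode surface receptors, the cytokine gene Il1b, the endothelial selectin genes Selp and Sele, and the leukocyte integrin gene Itgb2. They were chosen by name, with earlier results of these data known, and all 10 were found among the 47643 genes of the expression table. Values are TPM (transcripts per 1000000), a share of the transcripts in a library that is corrected for transcript length, and each library sums to 1000000. Of the 10 genes, 6 reached 1 TPM in at least 5 mice and were tested with the 13578 genes that did so. Cxcr2, Ngp, Ltf and Sele did not, and for them the same model was fitted to all 23900 genes above 0 in at least 1 mouse.

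Neutrophils are made in the bone marrow under the control of granulocyte colony-stimulating factor, which acts through the receptor encoded by Csf3r, and they leave the marrow and follow CXC chemokines through the receptor encoded by Cxcr2. At an inflamed vessel they roll on the selectins of the endothelium, which tumor necrosis factor and interleukin-1 induce, and are then held by beta-2 integrins, whose common chain Itgb2 encodes. S100A8 and S100A9 pair as calprotectin, an abundant protein of the neutrophil cytosol, while lactoferrin (Ltf) and the neutrophilic granule protein (Ngp) are made in marrow precursors and stored in granules. Several of the 10 genes are not specific to 1 cell type: monocytes also use S100a8, S100a9, Il1b and Itgb2, and platelets and megakaryocytes store P-selectin.

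The diaphragm, a respiratory skeletal muscle, was taken from 62 female mice of a labelled age of 2 months, 1 library a mouse, and the labels call the mice of a group biological replicates. Cachectic mice (CAC) carried a human melanoma xenograft that causes wasting, non-cachectic mice (NCAC) carried a melanoma xenograft that does not, and control mice (Con) had a mock injection of buffer. Each group was sampled 2, 4, 6 and 8 weeks after injection, with 5 mice per group and week except for 7 CAC mice at 8 weeks. The labels give the strain as C57BL/6J and the study's methods give athymic nude mice. Nude mice lack T cells and keep neutrophils, a trait that all 3 groups would then have shared. Each tumor group stands for 1 patient-derived tumor, so that a difference between CAC and NCAC mice is also a difference between 2 tumors.

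In bulk tissue a lower level of a gene can mean fewer cells of a type or less RNA per cell, and these cannot be told apart here. The 10 genes of the skeletal muscle list summed to between 38732 and 94582 TPM in every mouse, as a muscle label requires. Neutrophil markers were uneven. Ly6g, which defines mouse neutrophils, was at 0 in 45 of the 62 mice, Camp in 39, Elane in 42, Mpo in 31 and Cxcr1 in 53, whereas Lcn2, Mmp9, Padi4, Wfdc21, Fpr1, Fpr2, C5ar1 and Clec4d were at 0 in none. The median over the mice was 0 for 4 of 18 granule and secreted products and 1 of 18 surface receptors. In 4 libraries (CAC replicates 3 and 4 and NCAC replicate 5 at 2 weeks, CAC replicate 3 at 8 weeks) between 15069 and 16389 genes were above 0 and 54.4 to 61.5% of TPM came from mitochondrially encoded genes, against 17909 to 19057 genes and 32.5 to 50.1% in the other 58.

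S100a8 (chromosome 3, 90668978 to 90670035, plus strand) and S100a9 (chromosome 3, 90692632 to 90695721, minus strand) lie 22596 bp apart in the GENCODE annotation of GRCm38. Sele (chromosome 1, 164048234 to 164057677) and Selp (chromosome 1, 164115264 to 164150026), both on the plus strand, lie 57586 bp apart. Cxcr2 is on chromosome 1 (74153989 to 74161246, plus strand), Il1b on chromosome 2 (129364570 to 129371139, minus strand), Csf3r on chromosome 4 (126024550 to 126044440, plus strand), Ngp and Ltf on chromosome 9 (from 110419747 and 111019271, plus strand), and Itgb2 on chromosome 10 (77530252 to 77565708, plus strand).

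The sequences before the start sites of 4 genes whose levels separated CAC from control mice at 6 weeks are given next, read 5′ to 3′ on the strand of each gene from RefSeq promoter windows (GRCm38.p6). The intervals are chr3:90668821-90668977 (plus) for S100a8, chr3:90695722-90695971 (minus) for S100a9, chr2:129371140-129371389 (minus) for Il1b and chr1:164047984-164048233 (plus) for Sele. Capitals mark matches to the letters searched. That of S100a8 stops where the GENCODE gene begins, 93 bases before the RefSeq start.
S100a8: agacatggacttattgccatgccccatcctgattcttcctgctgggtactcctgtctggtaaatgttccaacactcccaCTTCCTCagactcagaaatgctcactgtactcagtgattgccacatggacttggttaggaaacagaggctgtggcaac
S100a9: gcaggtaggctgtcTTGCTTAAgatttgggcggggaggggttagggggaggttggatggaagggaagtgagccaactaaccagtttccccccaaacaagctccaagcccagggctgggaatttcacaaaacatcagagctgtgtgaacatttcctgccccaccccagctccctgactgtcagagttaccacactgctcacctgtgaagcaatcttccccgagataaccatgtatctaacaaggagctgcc
Il1b: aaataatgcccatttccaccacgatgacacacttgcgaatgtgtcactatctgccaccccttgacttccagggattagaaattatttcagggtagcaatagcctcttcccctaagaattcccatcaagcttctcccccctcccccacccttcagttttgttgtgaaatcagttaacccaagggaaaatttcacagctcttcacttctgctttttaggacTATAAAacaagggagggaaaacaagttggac
Sele: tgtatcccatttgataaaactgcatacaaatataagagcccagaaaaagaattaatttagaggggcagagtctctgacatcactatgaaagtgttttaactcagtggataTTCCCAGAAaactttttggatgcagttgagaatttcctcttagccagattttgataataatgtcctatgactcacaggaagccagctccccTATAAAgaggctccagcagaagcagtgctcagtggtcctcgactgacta

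Both strands of the 250 bases before each start were searched for 1 form of each site. The letters were GAGGAAG for PU.1, TTNNGCAA for C/EBP factors, TTCNNNGAA for STAT factors, GGGNNTTCC for NF-kB and TATAAA for the TATA box. Sites of another length or spacing, among them longer NF-kB sites, would not be matched, so a lack of matches does not show a lack of sites. No match overlapped another. Windows were matched for 9 of the 10 genes. S100a8 held a PU.1 match whose first base lay 171 bases before its start and a TATA box 30 bases before it, the latter outside the part printed. S100a9 held a C/EBP match 236 bases before its start, Il1b a TATA box 31 bases before it, and Sele a STAT match 140 bases and a TATA box 49 bases before it. Among the genes not printed, Ngp held 2 C/EBP matches and Ltf 1, each with TTGGGCAA on one strand or the other, and Csf3r held 1 PU.1 match, whereas Cxcr2 and Selp held none of the 5. Over all 32851 windows, 10.6% held the PU.1 letters, 9.56% the C/EBP, 7.02% the STAT, 4.98% the NF-kB and 12.4% the TATA letters, and these matches say nothing about binding.

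Among the granule and secreted products, S100a8 was higher in CAC mice late in the course. At 8 weeks its levels in CAC mice were 3.30, 19.8, 6.94, 20.5, 4.77, 6.44 and 5.56 TPM (replicates 1 to 7, median 6.44). Control mice at that week had 3.55, 3.32, 2.56, 2.57 and 1.18 TPM. NCAC mice had 1.87, 3.87, 2.38, 2.61 and 1.99 TPM. All CAC mice but replicate 1 lay above every control and every NCAC mouse. The mean was 9.62 ± 7.31 TPM (SD, n = 7) in CAC and 2.64 ± 0.929 TPM (SD, n = 5) in control mice. On the log2(TPM + 1) scale the difference from control was 1.33 ± 0.44 (SE, limma adjusted p = 0.0315) and that from NCAC mice 1.35 ± 0.44 (limma adjusted p = 0.0317). The call against NCAC mice held in 15 of 23 alternatives and that against control in 16 of 23, the latter with adjusted p (limma or Dunn) from 0.000273 to 0.103. It was lost without CAC replicate 2 (0.0912) or 4 (0.0819) or control replicate 3, 4 or 5, and in a fit of the 2 groups alone (0.0926). It was 0.0882 in Dunn's test, which on simulated data passed few of the changed genes at these group sizes, so that a miss in it says little.

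At 6 weeks S100a8 stood at 12.6, 5.36, 4.58, 3.9 and 4.47 TPM in CAC mice. Control mice had 1.98, 2.96, 2.81, 1.45 and 2.58 TPM, and NCAC mice 0.528, 1.77, 1.13, 2.84 and 3.36 TPM. The CAC range lay above both others without overlap, but the difference from control, 1.01 ± 0.48 on the log2(TPM + 1) scale, had an adjusted p of 0.215 (limma). Without the 4 libraries with the fewest genes, which were all taken in other weeks and enter through the shared spread, that adjusted p was 0.0168, and over the 21 alternatives it ran from 0.00689 to 0.537. At 2 and 4 weeks the differences from control were 0.15 and -0.03.

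S100a9, the partner of S100a8, followed it closely in the 62 mice (Pearson r = 0.90 on the log2 scale, a description across mice of all groups). At 6 weeks its CAC values of 13.2, 12.7, 9.08, 10.1 and 10.6 TPM lay above the control values of 7.49, 7.38, 4.94, 1.73 and 6.12 TPM. NCAC mice, with 1.00, 5.97, 5.00, 10.3 and 9.81 TPM, overlapped the CAC range. At 8 weeks CAC mice had 3.57, 45.8, 18.6, 17.4, 13.3, 22.8 and 13.8 TPM, control mice 2.35 to 9.45 and NCAC mice 4.91 to 8.34 TPM. Again replicate 1 alone fell inside the control range. The difference from control was 1.26 ± 0.56 on the log2(TPM + 1) scale and did not pass (limma adjusted p = 0.128), although it did without the 4 libraries with the fewest genes (1.22, adjusted p = 0.0191). It passed in 2 of 23 alternatives, with adjusted p from 0.0152 to 0.319.

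Ngp and Ltf, whose transcripts mark immature granulocytes, were close to 0 throughout. Ngp was at 0 in 33 mice and Ltf in 26. Outside NCAC replicate 5 at 2 weeks, Ngp reached at most 0.442 TPM and Ltf at most 0.075 TPM. At 8 weeks Ngp lay between 0 and 0.219 TPM in CAC mice and between 0 and 0.0808 TPM in control mice, with a difference of 0.06 on the log2(TPM + 1) scale (95% interval -0.17 to 0.29). For Ltf that difference was 0.00 (95% interval -0.17 to 0.17). Neither gene passed in any comparison without a filter.

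NCAC replicate 5 at 2 weeks stood apart in the granule and secreted products. It had 42.7 TPM of S100a8, 120 TPM of S100a9, 1.64 TPM of Ngp and 1.25 TPM of Ltf, the highest of the 62 mice in each, and also their highest Ly6g (1.74 TPM) and Camp (2.22 TPM). The other NCAC mice of that week had 0.360 to 1.54 TPM of S100a8 and 0.574 to 3.91 TPM of S100a9. Its Cxcr2, at 0.258 TPM, compared with 0.0164 to 0.207 TPM in the other NCAC mice of that week, and its Csf3r, at 0.346 TPM, with 0.346 to 0.731 TPM. It is 1 of the 4 libraries with few genes, and its macrophage and monocyte list summed to 1404 TPM, against a median of 419 TPM over all mice. Lyz2, which is on that list and on that of granule and secreted products, had a median of 256 TPM over all mice. The sums of these 2 lists are therefore not separate measures. The part of this mouse's values in the result was not tested.

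**Figure D1:**
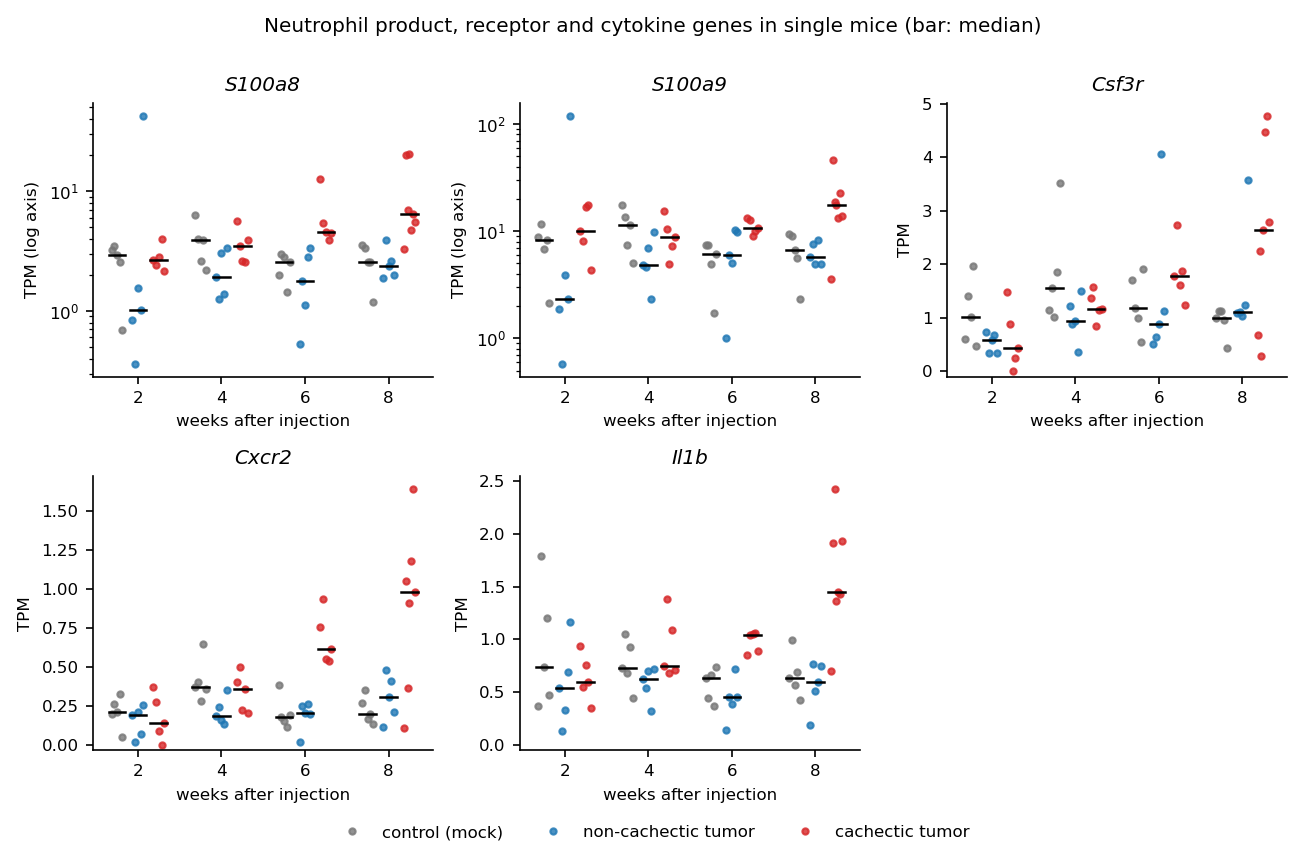
TPM of S100a8 and S100a9 (log axes) and of Csf3r, Cxcr2 and Il1b (linear axes) against weeks after injection, 1 point a mouse, with a black bar at the median of each group. At 8 weeks the CAC medians are 6.44 TPM for S100a8, 0.981 TPM for Cxcr2 and 1.45 TPM for Il1b, and replicate 1 of the CAC mice stays within or below the control range in each.

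Of the receptors, Cxcr2 was higher in CAC than in control and NCAC mice at 6 and at 8 weeks. It was at 0.756, 0.936, 0.549, 0.537 and 0.611 TPM in CAC mice at 6 weeks. Control mice had 0.381, 0.181, 0.156, 0.115 and 0.191 TPM. NCAC mice had 0.0172, 0.252, 0.205, 0.258 and 0.200 TPM. No CAC value overlapped either group. The difference from control was 0.48 ± 0.12 on the log2(TPM + 1) scale (limma without a filter, adjusted p = 0.0135), and that from NCAC mice 0.50 ± 0.12 (adjusted p = 0.0101). Without CAC replicate 2, the highest, the adjusted p against control was 0.0568, the upper end of its range over 17 alternatives (from 7.57e-05).

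At 8 weeks Cxcr2 stood at 0.105, 1.05, 0.366, 0.909, 1.17, 1.64 and 0.981 TPM in CAC mice. Control mice had 0.270, 0.353, 0.162, 0.200 and 0.134 TPM and NCAC mice 0.115 to 0.478 TPM. Of the 7 CAC mice, 6 lay above every control mouse, and replicate 1 lay below all of them. The mean was 0.889 ± 0.511 TPM (SD, n = 7) against 0.224 ± 0.0884 TPM (SD, n = 5) in control mice. The differences were 0.58 ± 0.11 from control (limma without a filter, adjusted p = 0.00027) and 0.49 ± 0.11 from NCAC mice (adjusted p = 0.00227). Both passed in all 19 alternatives run for them, with adjusted p of at most 0.00794 and 0.0455. Dunn's test and a fit of the groups compared alone were not among these alternatives. Because most of these levels lie below the pseudocount of 1, log2 differences understate the change in TPM, and with a pseudocount of 0.1 the 8-week difference from control was 1.39.

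Csf3r, the receptor for granulocyte colony-stimulating factor, was at 0.679, 2.25, 0.284, 2.63, 4.48, 4.78 and 2.80 TPM in CAC mice at 8 weeks. Control mice had 0.992, 1.14, 1.14, 0.959 and 0.438 TPM, and NCAC mice 1.09, 1.10, 1.03, 1.24 and 3.58 TPM. CAC replicates 1 and 3 lay below most control mice and the other 5 above all of them. The difference of 0.72 ± 0.27 on the log2(TPM + 1) scale did not pass (limma adjusted p = 0.0674). Without CAC replicate 3, a library with few genes, it was 0.93 with an adjusted p of 0.00662, and without replicate 1 it was 0.87 with an adjusted p of 0.0267. Over 23 alternatives the adjusted p ran from 0.000288 to 0.350. The difference from NCAC mice was 0.35 (95% interval -0.20 to 0.90).

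Il1b, the cytokine of activated monocytes and neutrophils, was higher in CAC mice at 8 weeks than in both other groups. CAC mice had 0.698, 1.92, 2.43, 1.37, 1.45, 1.43 and 1.94 TPM. Control mice had 0.634, 0.994, 0.570, 0.694 and 0.428 TPM. NCAC mice had 0.183, 0.764, 0.514, 0.598 and 0.749 TPM. All CAC mice but replicate 1 exceeded every other mouse of that week. The mean of 1.61 ± 0.552 TPM (SD, n = 7) compared with 0.664 ± 0.209 TPM (SD, n = 5) in control and 0.562 ± 0.236 TPM (SD, n = 5) in NCAC mice. The differences were 0.63 ± 0.15 from control (limma adjusted p = 0.0018) and 0.72 ± 0.15 from NCAC mice (limma adjusted p = 0.000365). They passed in 21 and 22 of 23 alternatives, with adjusted p of at most 0.0743 and 0.0677.

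At 6 weeks the CAC values of Il1b lay close together at 0.855, 1.04, 1.05, 1.07 and 0.895 TPM. Control mice reached from 0.369 to 0.736 TPM and NCAC mice from 0.137 to 0.723 TPM. The groups did not overlap, yet the differences of 0.34 (adjusted p = 0.211) and 0.48 (adjusted p = 0.0599) did not pass in limma. At 2 weeks the difference from control was -0.19, and the change of that difference from 2 to 8 weeks, tested as an interaction, was 0.81 ± 0.22 (limma adjusted p = 0.0234).

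The endothelial selectins lay at different levels. Selp, which encodes P-selectin of endothelial cells and platelets, had a median of 2.47 TPM over the 62 mice and varied widely inside groups. At 8 weeks CAC mice had 1.86, 4.63, 1.06, 4.40, 6.82, 10.2 and 3.26 TPM, control mice 2.43, 2.53, 3.89, 3.65 and 0.844 TPM, and NCAC mice 4.59, 1.5, 1.74, 2.08 and 11 TPM. The 3 groups overlapped. The difference from control was 0.49 (95% interval -0.34 to 1.32, limma adjusted p = 0.487) and did not pass in any of 23 alternatives. The highest value of all, 17.1 TPM, was in control replicate 5 at 4 weeks.

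Sele, which encodes E-selectin, which activated endothelium makes, was at or below 0.682 TPM in every mouse and at 0 in 8. Its CAC values at 6 weeks were 0.0579, 0.682, 0.383, 0.194 and 0.266 TPM. Control mice had 0.0544, 0.0515, 0.0181, 0.0345 and 0.0166 TPM, all below the CAC values, although the lowest CAC mouse (0.0579 TPM) lay barely above the highest control mouse (0.0544 TPM). NCAC mice lay between 0.0348 and 0.162 TPM. The difference from control was 0.33 ± 0.08 on the log2(TPM + 1) scale (limma without a filter, adjusted p = 0.00862). Without CAC replicate 2 the adjusted p was 0.0774, and over 17 alternatives it began at 0.000147.

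At 8 weeks Sele in CAC mice was 0.128, 0.318, 0.199, 0.355, 0.168, 0.299 and 0.261 TPM, and control mice had 0, 0.0703, 0.254, 0.0524 and 0.0701 TPM. Control replicate 3 lay inside the CAC range and the other 4 below it. The differences of 0.20 from control (adjusted p = 0.0861) and 0.20 from NCAC mice (adjusted p = 0.0898) did not pass without a filter. The lowest value of Sele above 0 was 0.0164 TPM, so that the control values at 6 weeks lay close to the smallest level seen.

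Itgb2, the shared chain of the beta-2 integrins of all leukocytes, was the only 1 of the 10 at 1 TPM or more in every mouse. At 8 weeks CAC mice had 1.80, 11.3, 3.73, 7.80, 18.5, 36.6 and 7.62 TPM, control mice 7.18, 6.56, 9.40, 10.7 and 4.65 TPM, and NCAC mice 12.5, 4.68, 7.23, 5.90 and 25.5 TPM. The CAC values reached both below and above those of the other groups. The difference from control was 0.23 (95% interval -0.79 to 1.24, limma adjusted p = 0.827) and that from NCAC mice -0.06. Both turned sign when single mice were left out. The 2 highest values were 50.3 TPM in control replicate 5 at 4 weeks and 45.5 TPM in NCAC replicate 4 at 6 weeks, the latter with 12.8 TPM of Selp and 4.06 TPM of Csf3r.

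**Figure D2:**
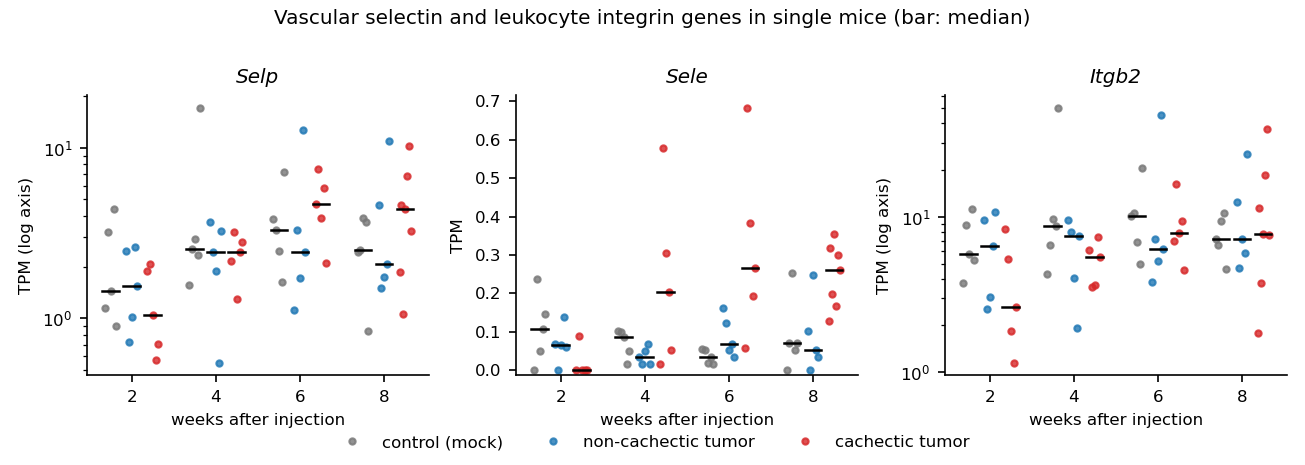
TPM of Selp and Itgb2 (log axes) and Sele (linear axis) against weeks after injection, 1 point a mouse, with a black bar at the median of each group. The 3 groups overlap for Selp and Itgb2 at 8 weeks, while the 5 CAC values of Sele at 6 weeks, from 0.0579 to 0.682 TPM, lie above those of the control mice.

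Over the 10 genes, CAC replicate 1 at 8 weeks had the lowest CAC level of S100a8, S100a9, Cxcr2, Il1b, Sele and Itgb2. Its platelet list summed to 13.3 TPM and its macrophage and monocyte list to 313 TPM, the lowest of the 7, while 18066 genes were above 0 in it. CAC replicate 6 had the highest Csf3r, Cxcr2, Selp and Itgb2 of those 7 mice and a platelet list sum of 102 TPM. The part of these values in the differences was not tested.

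Counts over the genes were read against all genes tested. The genes were chosen with earlier results of these data known, so that the shares here and below are descriptions only. In CAC against control mice at 8 weeks 2 of the 6 tested genes, S100a8 and Il1b, were higher at an adjusted p under 0.05 in limma, against 6.65% of all 13578 genes, and without a filter 3 of the 10 were (these and Cxcr2), against 4.23% of 23900. Against NCAC mice at 8 weeks the same 2 of 6 and 3 of 10 genes passed, with 6.75% and 4.15% of all genes. At 6 weeks 0 of 6 passed against control (2 at an unadjusted p under 0.05), with 5.62% of all genes higher, and without a filter Cxcr2 and Sele passed, with 3.14%. Against NCAC mice at 6 weeks 0 of 6 passed (2 at an unadjusted p under 0.05) with 4.28% of all genes higher, and Cxcr2 passed without a filter with 2.53%. With array quality weights 3 and 4 of the 6 passed in these 2 comparisons at 6 weeks, and Dunn's test passed 0. The share of all genes that passed was not computed for these 2 settings, so these counts cannot be read against it.

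Without the 4 libraries with the fewest genes, the differences from control at 8 weeks were 1.36 for S100a8 (limma adjusted p = 0.000636), 0.55 for Il1b (adjusted p = 0.0021) and 0.65 for Cxcr2 without a filter (adjusted p = 1.38e-05), and those from NCAC mice 1.38, 0.65 and 0.56, all of which passed. Selp (0.70) and Itgb2 (0.40) against control did not pass without them, nor did Sele (0.21, adjusted p = 0.0579). In the 3 comparisons at 2 weeks the count of passing genes stayed at 0 of 6 without them.

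By range alone, every CAC mouse lay above every control mouse at 6 weeks for 5 of the 10 genes (S100a8, S100a9, Cxcr2, Il1b and Sele), against 9.68% of the 23900 genes. Against NCAC mice this held for 3 of the 10 (S100a8, Cxcr2 and Il1b), against 8.38%. At 8 weeks it held for none of the 10 against either group, with 1.51% and 1.45% of all genes. At 8 weeks 6 of the 7 CAC mice exceeded every control mouse for S100a8, S100a9, Cxcr2 and Il1b. The share of all genes at this looser cut was not computed, so it only describes these genes.

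Before 6 weeks the 10 genes showed no such order of the groups. At 2 weeks S100a8 ranged from 2.15 to 4.01 TPM in CAC and from 0.688 to 3.46 TPM in control mice, and at 4 weeks from 2.57 to 5.65 and from 2.21 to 6.35 TPM. Cxcr2 ranged at 2 weeks from 0 to 0.370 TPM in CAC and from 0.0522 to 0.326 TPM in control mice, and at 4 weeks from 0.206 to 0.497 and from 0.278 to 0.644 TPM. Il1b ranged at 2 weeks from 0.353 to 0.937 TPM in CAC and from 0.367 to 1.79 TPM in control mice. In these genes the groups overlapped in both weeks. Sele was at 0 in 4 of 5 CAC mice at 2 weeks, among them 2 of the libraries with few genes, and at 4 weeks it was at 0.0168, 0.578, 0.304, 0.204 and 0.0538 TPM in CAC and 0.0164 to 0.102 TPM in control mice, so that 3 of 5 CAC mice lay above every control mouse.

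Early and tumor-only comparisons gave no call among the 6 tested genes. At 2 weeks 0 of 6 differed between CAC and control mice, where 29.3% of all genes passed in either direction and the median difference of all genes was -0.42 against -0.29 for the 6. At 4 weeks 0 of 6 passed with 0.0221% of all genes. Against NCAC mice 0 of 6 passed at 2 weeks (0% of all genes) and at 4 weeks (0.0295%). Between NCAC and control mice 0 of 6 passed at 2 weeks (4.43% of all genes) and at 4, 6 and 8 weeks (0% each). Without a filter 0 of the 10 passed in any of them. In each of these comparisons 0 of the 6 had an unadjusted p under 0.05, and Dunn's test passed 0. Array quality weights passed Il1b in NCAC against control mice at 2 weeks, and S100a9 passed in CAC against NCAC mice at 2 weeks without NCAC replicate 5, the library at 120 TPM.

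Changes of the CAC and control difference between weeks were tested as interactions. From 4 to 6 weeks and from 6 to 8 weeks 0 of 6 genes changed, as did 0% of all genes in each, and 0 of the 6 had an unadjusted p under 0.05. From 2 to 8 weeks Il1b passed, against 4.68% of all genes that shifted upward, and without a filter Il1b and Cxcr2 (0.62 ± 0.17, adjusted p = 0.0329) passed, against 2.27%. The Il1b call was lost in 8 settings, among them a pseudocount of 0.1, both rescalings of the libraries and array quality weights, and without control replicate 2 or 4 at 2 weeks. The median difference at 8 weeks was 0.67 over the 6 tested genes and -0.09 over all 13578, and at 6 weeks 0.34 and 0.17. With median-ratio scaling the difference of S100a8 at 6 weeks was 0.84.

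**Figure D3:**
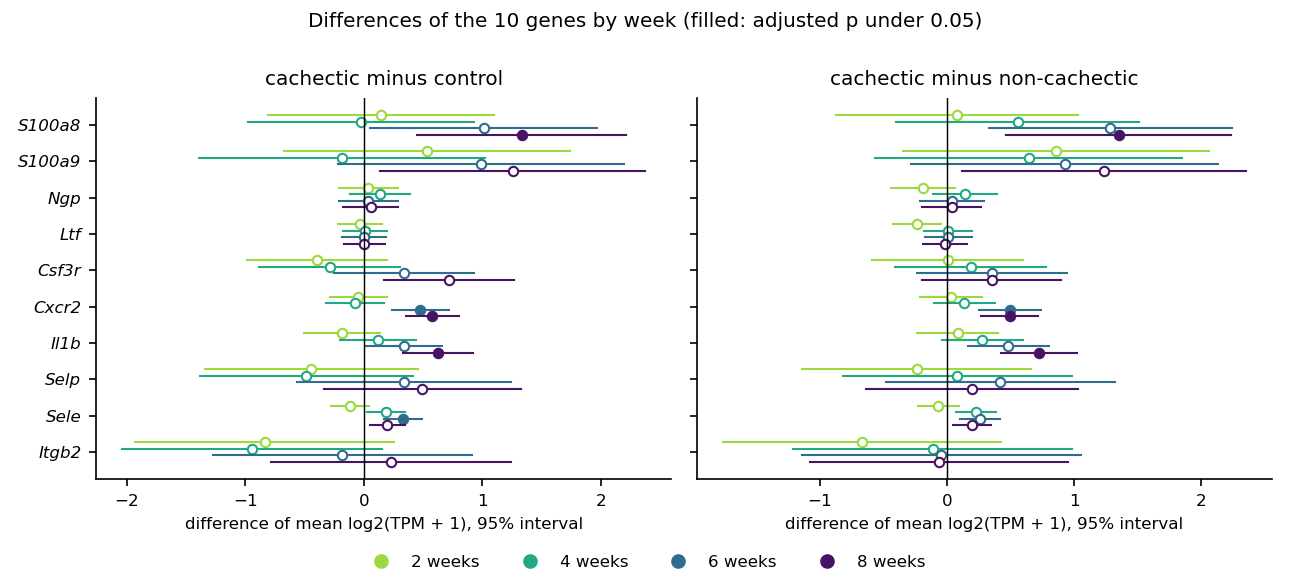
Difference of mean log2(TPM + 1) between CAC and control mice (left) and CAC and NCAC mice (right) for the 10 genes, with the 95% interval, at 2, 4, 6 and 8 weeks (light to dark). Filled points have an adjusted p under 0.05 in limma, without a filter for Ngp, Ltf, Cxcr2 and Sele, and all of them lie at 6 or 8 weeks above 0.

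Lists of genes of the same roles, which include the genes described here, were counted in CAC against control mice at 8 weeks. Of all 13578 genes tested in that comparison, 903 (6.65%) were higher and 1102 lower. The lists were chosen with earlier results of these data known. Of 18 neutrophil granule and secreted products 11 were tested, 6 were higher and 1 lower, with a median difference of 1.26 against -0.09 for all genes. S100a8 is among the 6 and S100a9 among the 11 tested, so these counts are not separate from the results above. Lcn2, which encodes the iron carrier lipocalin-2, differed most (3.52 ± 0.39, limma adjusted p = 6.46e-09), followed by Wfdc21 (2.88 ± 0.89, adjusted p = 0.0208) and Chil3, a chitinase-like product, which did not pass (2.19, adjusted p = 0.0785). The 1 that was lower was Mmp9 (-0.64), the gelatinase of the tertiary granules. Lcn2 is also made by cells other than neutrophils.

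Of 18 neutrophil surface receptors 8 were tested and 3 were higher, Fcgr4 (1.04), the formyl peptide receptor Fpr2 (0.85) and the complement receptor C5ar1 (0.58), while Clec4d stood at 0.65 without passing (adjusted p = 0.348). Of 10 chemokines and growth factors for neutrophils 3 were tested, and Ppbp (1.5) and Pf4 (1.04), both stored in platelets, were higher. Cxcl1, a ligand of CXCR2, stood at 0.41 (adjusted p = 0.29). Of 12 genes of the interleukin-1 system 8 were tested and 3 were higher, the receptor Il1r1 (0.70), the adaptor Myd88 (0.56) and Il1b itself, with the inflammasome adaptor Pycard at 0.63 (adjusted p = 0.139). None of these 3 lists held a gene that was lower.

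Of 26 genes of leukocyte adhesion and transmigration 25 were found by name and 21 tested. Of these, 2 were higher and 1 lower, with a median difference of -0.10. These counts lay near the shares of all tested genes, 6.65% higher and 1102 of 13578 lower. The integrin gene Itgam, which has 2 entries under other names, was not counted. Its entry Itgam_1 stood at 0.09 (limma adjusted p = 0.949). The chemokine-binding receptor Ackr1, a marker of venules, was at 7.57 to 10.6 TPM in CAC mice and 2.40 to 3.15 TPM in control mice without overlap (1.38 ± 0.17, limma adjusted p = 6.24e-08). The junction genes Esam (0.57, adjusted p = 0.0476) and Jam3 (-0.39, adjusted p = 0.0104) passed in opposite directions, and Cdh5, which encodes VE-cadherin, stood at -0.66 (adjusted p = 0.181).

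Marker lists of other cells were counted in the same comparison, where 6.65% of all tested genes were higher and 1102 of 13578 lower. Only the platelet list and the macrophage and monocyte list stood well above these shares. All 5 tested platelet genes of 10 were higher (Gp9 by 1.56, Ppbp by 1.5, Pf4 by 1.04, Tubb1 by 0.77 and Itga2b by 0.74), and the list summed to 13.3 to 102 TPM in CAC mice, 13.7 to 29.5 TPM in control and 11.7 to 22.0 TPM in NCAC mice. Of the 12 macrophage and monocyte genes 6 were higher, led by Ly6c2 (1.24), C1qb (0.97), C1qc (0.94) and C1qa (0.93), and the list summed to 313 to 1236 TPM in CAC, 317 to 620 TPM in control and 255 to 1361 TPM in NCAC mice. Single genes weigh heavily in both sums. Over all mice Lyz2, also a granule and secreted product, had a median of 256 TPM, against 419 TPM for the macrophage and monocyte list. Pf4 had a median of 18.4 TPM, against 22.5 TPM for the platelet list. Of the 12 endothelial genes Esam was higher and Kdr lower (-0.98). Of the red cell, B and T lymphocyte, keratinocyte, mesothelial and liver lists no gene passed, of the mast cell and basophil list Kit was lower (-0.58), and of the muscle list Mb was lower (-0.70). At least 1 mouse was above 0 for each gene of these lists. The part of these cell types in the differences of the 10 genes was not tested.

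The genes most like each of 5 members over the 62 mice were found by Pearson's r on the log2(TPM + 1) scale among the 13578 tested genes. These are descriptions over mice that share libraries, groups and weeks. For S100a8 they were S100a9 (0.90), the neutrophil resistin-like gene Retnlg (0.80) and Stx8 (0.74). For Cxcr2 they were the platelet glycoprotein gene Gp9 (0.85), Npy (0.83) and the platelet ADP receptor P2ry12 (0.82), and its r with the mean of the 10 platelet genes was 0.85. Its r was 0.70 with the mean of the 14 granule and secreted products outside the members. With that of the 16 neutrophil surface receptors outside the members it was 0.64. For Il1b they were Susd1 (0.77), Tmem176a (0.76) and the Fc receptor gene Fcgr1 (0.74).

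Selp was most like Itgam_1 (0.93), 1 of 2 entries listed for the integrin gene Itgam, then Itgb2 (0.91) and Alox15 (0.90). Its r was 0.71 with the mean of the 12 macrophage and monocyte genes and 0.38 with the mean of the 12 endothelial genes. With the mean of the 10 platelet genes it was 0.60, and with that of the 16 neutrophil surface receptors outside the members 0.77. For Itgb2 the nearest were the phagocyte oxidase gene Cybb (0.96), Itgam_1 (0.96) and Alox15 (0.95). Csf3r also ran with Selp (0.88) and Itgb2 (0.80). Sele and Selp, neighbors on chromosome 1, had an r of 0.27, and Ngp and Ltf, which were at 0 in many mice, had an r of 0.87.

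**Figure D4:**
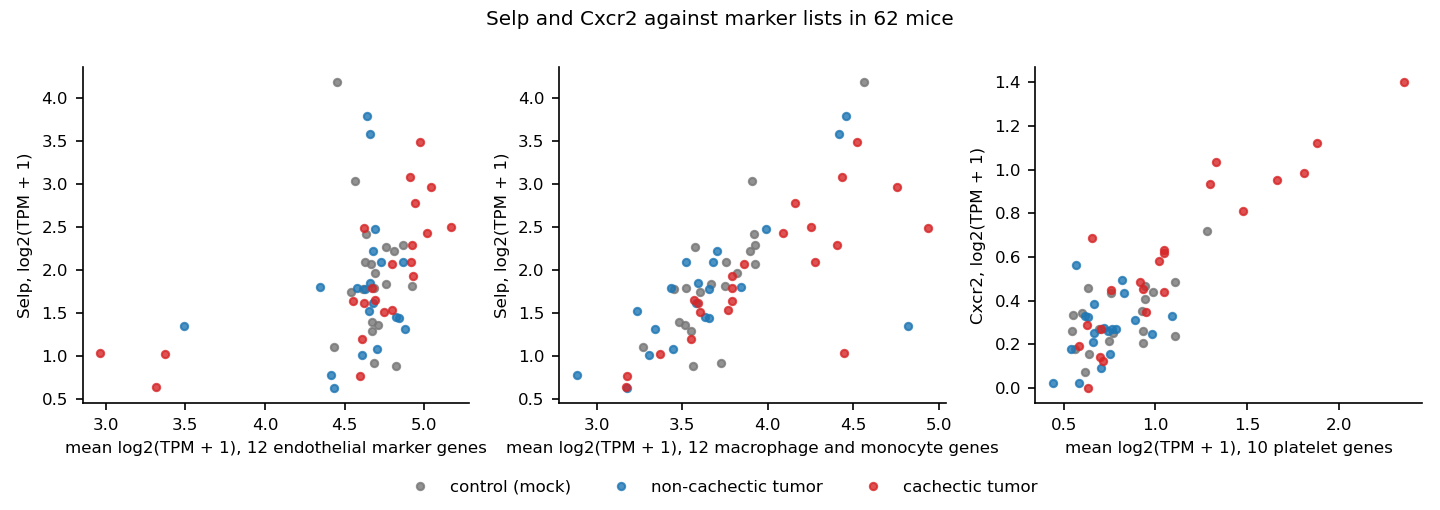
Selp against the mean log2(TPM + 1) of 12 endothelial genes (left) and of 12 macrophage and monocyte genes (middle), and Cxcr2 against that of 10 platelet genes (right), 1 point for each of the 62 mice. The r values are 0.38, 0.71 and 0.85, and the 4 libraries with few genes are the points at the far left of the first panel.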

How the data were processed

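RNA was sequenced from the diaphragm of 62 mice. The authors aligned the reads to GRCm38 (mm10 in the submitters' processing notes) with CLC Genomics Workbench and deposited TPM values per gene. Annotation release, strand setting and handling of multiply mapped reads are not given in the sources used here, and the labels and the methods differ in strain and library kit. The extraction text of the labels also names a time of 3 weeks after LLC (Lewis lung carcinoma) cells, which is neither the tumor nor a week of these samples. TPM keeps no read counts, so depth is unknown and no counting interval is given.

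Groups came from the labels' treatment and time. Genes that reached 1 TPM in 5 or more mice (13578 of 47643) were tested as log2(TPM + 1) in limma 3.58.1 (R 4.3.3) with 12 condition means, a trended variance and Benjamini-Hochberg adjustment over all genes tested, and adjusted p under 0.05 passed. A difference on this scale understates changes of low genes. Intervals are 95% intervals of the fit. The study itself tested with Kruskal-Wallis and Dunn's tests, and Dunn's test is an alternative here. The same fit without a filter took 23900 genes. Tables were made with Python 3.11.15, pandas 2.3.3 and numpy 2.4.6, figures with matplotlib 3.10.9, and the test script was tested on simulated data.

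The members and the 15 gene lists were chosen with earlier results of these data known. Named genes are the members, up to 4 genes a list with the largest difference between CAC and control mice at 8 weeks, and the 3 genes most correlated with each of 5 members. C5ar1, Mmp9, Jam3, Itga2b, Kdr, Kit and Mb, named where they passed, and the sparse neutrophil markers were chosen after their values were seen. Alternatives were another pseudocount (0.1), no filter, median-ratio and quantile scaling, removal of mitochondrially encoded genes, array quality weights, a replicate block, only the groups compared, Dunn's test, and leaving out single mice, the 4 libraries with the fewest genes or the 4 with high liver genes. Those of Cxcr2 and Sele without a filter were chosen after seeing the data. They did not include Dunn's test, only the groups compared or removal of mitochondrially encoded genes.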

Additional observations from a re-analysis of the deposited data

Results flagged for a closer look

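A mouse was listed here where the gap to its nearest neighbor, divided by the range of its group and week, passed Dixon's 95% critical value. This held in 21 of the 120 sets of mice (10 genes in 12 conditions), where chance gives about 1 in 20, and for Ngp and Ltf, at 0 in 33 and 26 of the 62 mice, a single value above 0 can be enough.

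NCAC replicate 5 at 2 weeks stood alone in 4 genes, with 42.7 TPM of S100a8, 120 TPM of S100a9, 1.64 TPM of Ngp and 1.25 TPM of Ltf. Control replicate 5 of that week was the lowest of its group for S100a8 at 0.688 TPM, and CAC replicate 1 at 6 weeks the highest of its group at 12.6 TPM.

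Ngp stood alone in CAC replicate 3 (0.272 TPM) and control replicate 3 (0.159 TPM) at 2 weeks, in NCAC replicate 4 (0.0403 TPM) and control replicate 3 (0.0431 TPM) at 6 weeks, and in control replicate 3 at 8 weeks (0.0808 TPM). Ltf did so in CAC replicate 1 at 2 weeks (0.0272 TPM) and 4 weeks (0.0711 TPM) and in CAC replicate 5 at 6 weeks (0.075 TPM).

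NCAC replicate 4 at 6 weeks was the highest of its group in Itgb2 (45.5 TPM) and Csf3r (4.06 TPM), NCAC replicate 5 at 8 weeks in Csf3r (3.58 TPM), and control replicate 5 at 4 weeks in Selp (17.1 TPM). Their macrophage and monocyte lists, which include the granule and secreted product Lyz2, summed to 645, 1361 and 1870 TPM. These sums lay above the median of 419 TPM, and their part in the values of these mice was not tested. Within its group and week, Sele was highest in CAC replicate 2 at 2 weeks (0.0891 TPM). Again within the group and week, Csf3r was lowest in control replicate 5 at 8 weeks (0.438 TPM), and Cxcr2 in NCAC replicate 1 at 6 weeks (0.0172 TPM).

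The difference between CAC and control mice changed from 2 to 8 weeks for Il1b (by 0.81, limma adjusted p = 0.0234) and, without a filter, for Cxcr2 (by 0.62, limma adjusted p = 0.0329). The values of these genes are in the report.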

How the results depend on the processing

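The calls of Cxcr2 at 8 weeks held in every alternative run for it. Dunn's test, a fit of the 2 groups alone and removal of mitochondrially encoded genes were not run for Cxcr2. The calls of Il1b at 8 weeks held in all but Dunn's test and, against control, a fit of the 2 groups alone. On simulated data with an equal spread for each gene in all conditions, Dunn's test passed 4 of 200 changed genes and limma 193. Counts of 0 in Dunn's test therefore say little. Unequal spread between conditions was not simulated, so these data do not show that the limma calls are sound. Shares of all genes were computed only for the main fit and the fit without a filter, so other counts have no share beside them. The counts of passing members moved as follows, out of the 6 tested or, without a filter, of all 10. Against control at 6 weeks the count of 0 became 2 without a filter, 3 with array quality weights, 3 in a fit of the groups compared and 1 without the 4 libraries with the fewest genes. Against control at 8 weeks the count of 2 became 4 with array quality weights or without those 4 libraries, and 0 in a fit of the groups compared or in Dunn's test. Against NCAC mice at 6 weeks the count of 0 became 1 with a pseudocount of 0.1, without a filter or without the 4 libraries high in liver genes, 4 with array quality weights, and 2 in a fit of the groups compared or without the 4 libraries with the fewest genes. Against NCAC mice at 8 weeks the count of 2 became 4 with array quality weights, 1 in a fit of the groups compared and 0 in Dunn's test. Between NCAC and control mice at 2 weeks array quality weights gave 1. For the change from 2 to 8 weeks the count of 1 became 0 with a pseudocount of 0.1, median-ratio or quantile scaling, mitochondrially encoded genes removed, array quality weights, the replicate block, only the groups compared, or without the 4 libraries high in liver genes, and 2 without a filter or without the 4 libraries with the fewest genes. Leaving out single mice gave counts of 1 to 3 against control and 1 to 2 against NCAC mice at 8 weeks, 0 to 1 against NCAC mice at 2 and at 6 weeks, and 0 to 2 for the change from 2 to 8 weeks. The cause was not tested.

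Signs turned for Itgb2 and Selp, and for Ngp and Ltf, whose differences lay near 0. None of the 4 passed. Itgb2 against control at 6 weeks was 0.0059 without the 4 libraries high in liver genes and ran from -0.40 to 0.078 as single mice were left out, and at 8 weeks it was -0.12 with the replicate block and ran from -0.094 to 0.53. Against NCAC mice at 6 weeks Itgb2 was 0.44 with array quality weights and 0.14 without the 4 libraries high in liver genes, with single mice left out -0.29 to 0.52. At 8 weeks it was 0.044 with median-ratio scaling, 0.049 with quantile scaling, 0.0897 with array quality weights and 0.12 without the 4 libraries with the fewest genes, with single mice left out -0.38 to 0.28. Selp against NCAC mice at 8 weeks was -0.0027 with the replicate block and ran from -0.0025 to 0.57.

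The replicate block changed no other count (2 against control and 2 against NCAC mice at 8 weeks). Of 60 same-numbered pairs 18 had a correlation above 0.1 (from -0.63 to 0.39), so the numbers were not taken to pair mice. TPM gives no depth, and Ngp, Ltf and Sele lie too low for a small difference to be detectable.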
